A study of Homo sapiens with 6 samples.

Results

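RPSA and its processed pseudogene RPSAP15 were followed at the cytosines called as 5-methylcytosine (m5C) along a polysome gradient of HEK293T cells. All entries carrying either gene name were taken from the 6 site lists of the study, 1 list per gradient fraction. They came to 3 sites in 13 entries, of 542 sites in 1222 entries over the whole series. Both genes had been selected on their m5C levels in these same lists, RPSAP15 for its difference between the free and heavy polysome libraries and RPSA for its course over the fractions. Their levels along the gradient are therefore given as a description, without a test.

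HEK293T is an established human embryonic kidney line, here wild type. Its lysate, prepared with cycloheximide to hold ribosomes on mRNA, was parted on a sucrose gradient, and polyA-selected RNA of each fraction was treated with bisulfite and sequenced. Going down the gradient, the fractions held RNA free of ribosomes, RNA with the small or the large ribosomal subunit, monosomes with 1 ribosome, light polysomes with 2 to 5 and heavy polysomes with above 5. Only 1 library was made of each, so there was no replicate, and no difference between fractions could be set against the spread between cultures. Bisulfite turns unmethylated cytosine into a base read as T, while m5C stays C. The m5C level of a site is the percentage of its reads that carry C, and its coverage counts the reads showing C or T there. The lists held 172 to 233 sites per library and 50416 to 764521 reads at listed sites, with no entry below 20 reads or below a level of 10%. The reads had no molecular identifiers, so all intervals cover counting error only.

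RPSA encodes a protein of the small ribosomal subunit (uS2), also known as the precursor of the laminin receptor. Ribosomal protein genes are a main source of processed pseudogenes, which are copies of spliced mRNA reinserted into the genome and so carry no introns. In mRNA, m5C is placed by NSUN2 at sites with a G-rich triplet downstream, called Type I, and by NSUN6 at sites followed by UCCA, called Type II.

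The RPSA site lay at chr3:39450197 (GRCh37, plus strand) in the coding sequence. In transcript ENST00000301821.11 it was nucleotide 312 of 1140, in exon 3 of 7 (chr3:39450097-39450215), and the last base of codon 78 (TCC) of 295. The junction with the next exon was 18 nt downstream of it, so a genomic read and a spliced read part soon after the site. The main RPSAP15 site lay at chrX:86958997 (minus strand), within the processed pseudogene annotated at chrX:86958343-86959203. Listed sites with the same 21 nt around them (10 nt on either side) were also found under the names RPSAP58, COMMD1 and RP11-506B6.3. The COMMD1 entry fell in RPSAP26, a copy inside that gene, and the RP11-506B6.3 entry fell in RPSAP45. The locus listed as RPSAP58 is named RPSA2 in the annotation used here. The spliced windows of 101 nt around these 5 sites are shown because they hold what can and cannot tell the copies apart. They are in DNA letters from the GRCh37 genome, 5′ to 3′. CTCCA, the methylated C and its Type II motif, is in capitals, as is each base of a copy that differs from RPSA. RPSA is read from chr3:39450147-39450215 and chr3:39452245-39452276, RPSAP15 from chrX:86958947-86959047, RPSAP58 from chr19:24010147-24010247, COMMD1 from chr2:62373695-62373795 and RP11-506B6.3 from chr6:112677645-112677745.
RPSA: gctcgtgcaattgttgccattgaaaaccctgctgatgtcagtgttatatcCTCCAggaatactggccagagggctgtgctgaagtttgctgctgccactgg
RPSAP15: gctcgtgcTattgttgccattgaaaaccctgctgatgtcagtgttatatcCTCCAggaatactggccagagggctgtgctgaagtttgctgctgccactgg
RPSAP58: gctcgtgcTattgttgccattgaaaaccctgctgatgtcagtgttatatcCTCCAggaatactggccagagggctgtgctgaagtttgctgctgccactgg
COMMD1: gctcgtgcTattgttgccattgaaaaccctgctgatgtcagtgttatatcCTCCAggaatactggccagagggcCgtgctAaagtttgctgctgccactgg
RP11-506B6.3: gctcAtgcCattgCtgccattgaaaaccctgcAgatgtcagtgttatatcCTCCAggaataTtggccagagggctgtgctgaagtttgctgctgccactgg

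RPSAP15 and RPSAP58 each differed from RPSA at 1 base in this window, and it was the same base. Positions of differences are counted from 1 at the 5′ end of the RPSA transcript, with the RPSA base first. The shared difference was A270T, 42 nt upstream of the site. RPSAP15 next differed at C452G, 140 nt downstream, which left 181 nt around the site without a difference from RPSA. RPSAP58 next differed at C427T, a difference that bisulfite conversion hides, so that the stretch without a readable difference grew from 156 to 510 nt. Over 1034 aligned nt, RPSAP15 had 23 substitutions and 0 gaps against the RPSA transcript (97.8% identity), 3 of them hidden by conversion. RPSAP58 had 6 substitutions over 1036 nt (99.4% identity), 3 of them hidden. The COMMD1 and RP11-506B6.3 windows had 3 and 5 differences from RPSA. The stretch around the site without a readable substitution was 71 nt for COMMD1 and 224 nt for RP11-506B6.3. These lengths leave out gaps, of which the whole alignments had 1 for COMMD1 and 5 for RP11-506B6.3.

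**Figure D1:**
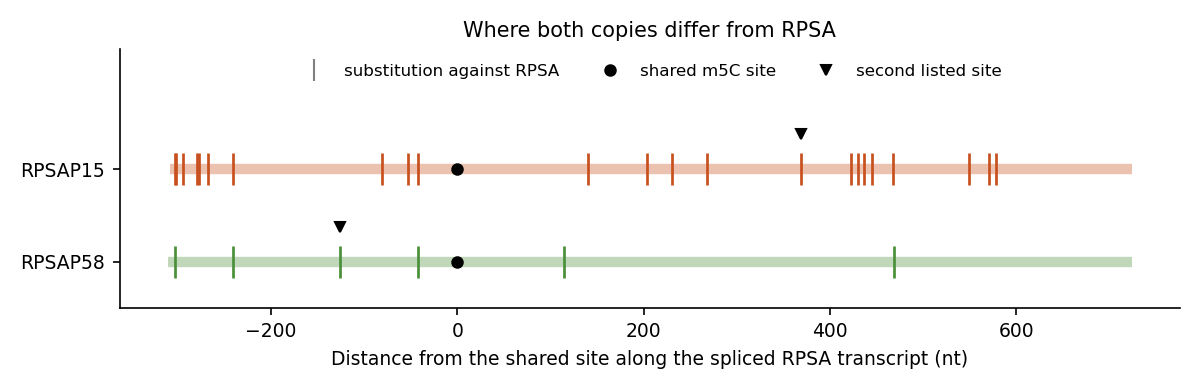
Substitutions of RPSAP15 and RPSAP58 against the spliced RPSA transcript, by distance from the shared m5C site in nt. Ticks are substitutions, circles the shared site and triangles a second listed site. RPSAP15 carries 23 substitutions and RPSAP58 carries 6, and both share the tick 42 nt upstream of the site.

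The 21-nt window of RPSA occurred at 18 places of the genome, all in genes of the RPSA family on 12 chromosomes. After every C was read as T, as in the mapping of converted reads, it occurred at 34 places. A window of 51 nt, which crosses the RPSA exon junction, occurred at 7 places, and at 14 after conversion. The spliced 101-nt window occurred nowhere in the genome, since RPSA itself is split by an intron there and each listed copy has at least 1 difference. The annotation held 74 genes named RPSAP with a number, a count that leaves out copies under other names such as RPSA2. How the authors assigned reads that match several copies was not given in the sources used here.

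The predicted folds of the RPSA, RPSAP15 and RPSAP58 windows were alike at the site, and the other windows were not folded. In the minimum free energy structure from RNAfold, the RPSA window had an energy of −24.1 kcal/mol, and the methylated C paired as the closing base of a hairpin loop of 4 nt that held UCCA. The RPSAP15 and RPSAP58 windows had an energy of −23 kcal/mol and the same closing pair and loop. Among the 12 other Type II sites listed in all libraries, 6 had the methylated C unpaired, in a hairpin loop, and the energies ran from −40.5 to −21.7 kcal/mol with a median of −31.1.

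The RPSA transcript was highly methylated at this site in every fraction, with its highest level in the monosome library and its lowest in the heavy polysome library. The free library had 62.9% of reads with C (95% Wilson interval 62.5 to 63.2) and the small subunit library 63.2% (62.8 to 63.7). The large subunit library had 66.1% (65.5 to 66.7) and the monosome library 74.3% (73.7 to 75.0). The light polysome library had 63.9% (63.1 to 64.7) and the heavy polysome library 55.2% (53.9 to 56.5). The intervals of the free, small subunit and light polysome libraries overlapped one another, while those of the large subunit, monosome and heavy polysome libraries stood clear of all others. The level thus did not fall step by step from light to dense, but went up to the monosome and then down.

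RPSAP15 had its highest and its lowest level in the same libraries. Free RNA gave 63.4% (59.7 to 66.9), the small subunit fraction 64.8% (60.3 to 69.1) and the large subunit fraction 64.6% (58.6 to 70.2). Monosomes gave 72.5% (67.0 to 77.4), light polysomes 58.0% (49.8 to 65.8) and heavy polysomes 45.5% (34.8 to 56.5). Its intervals were much wider, since the heavy polysome value rests on 77 reads against 5522 for RPSA. The interval of the monosome library overlapped those of both subunit libraries and began just above the end of that of the free library, and the interval of the heavy polysome library overlapped that of the light polysome library alone.

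**Figure D2:**
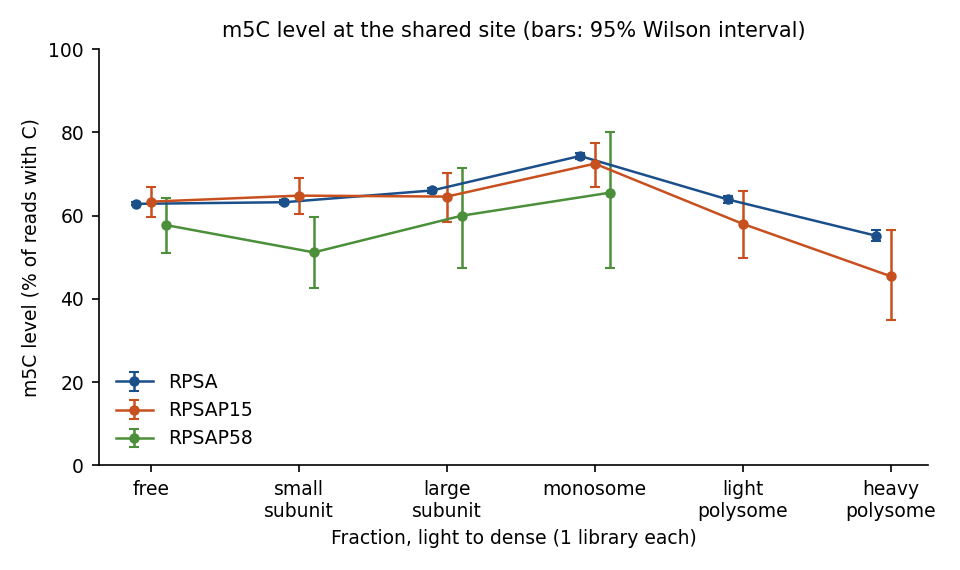
m5C level, as a percentage of reads with C, at the shared site of RPSA, RPSAP15 and RPSAP58 in each fraction, with 1 library per fraction and bars for the 95% Wilson interval. RPSA and RPSAP15 are highest in the monosome library (74.3% and 72.5%) and lowest in the heavy polysome library (55.2% and 45.5%), and RPSAP58 has no value in the polysome libraries.

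The steps between neighbouring fractions put sizes on this course, in percentage points with 95% Newcombe intervals. Large subunit minus monosome at RPSA was −8.29 points (−9.21 to −7.37), the 6th largest rise among 125 sites listed in both. From the monosome to the light polysome library it was 10.5 points lower (9.38 to 11.5), the 11th largest fall of 105. From light to heavy polysomes it was 8.70 points lower again (7.15 to 10.2), the 23rd largest fall of 132. The 105 and 132 shared sites were lower in the denser library by a median of 1.59 and 0.551 points. The steps among the lighter libraries were smaller, at −0.383 points for free minus small subunit (−0.921 to 0.156) and −2.83 points for small minus large subunit (−3.56 to −2.09). Ranks of falls, here and for RPSAP15 below, have a limit. No listed level is below 10%, and the median level of a library was 16.7% to 19.2%. Most sites thus had less room to fall in points than RPSA and RPSAP15.

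RPSAP15 was 14.5 points lower in the light polysome than in the monosome library (4.93 to 24.0), the 7th largest fall of 105. Its further difference of 12.6 points between the light and heavy polysome libraries had an interval that held 0 (−1.19 to 25.8). From the monosome to the heavy polysome library, RPSA differed by 19.2 points (17.7 to 20.6) and RPSAP15 by 27.0 points (14.7 to 38.8), the 8th and 3rd largest falls among 90 shared sites. From the free to the heavy polysome library, which was the contrast that had picked RPSAP15, RPSA differed by 7.65 points (6.30 to 9.01) and RPSAP15 by 17.9 points (6.24 to 29.1). The course through the monosome is missed by that contrast. Where free, small subunit and large subunit reads were summed, and light and heavy polysome reads likewise, RPSA had 63.5% before and 61.3% in the polysomes, a difference of only 2.16 points (1.42 to 2.90).

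RPSA and RPSAP15 were also compared with each other inside each library. Their levels had entered the selection of both genes, the heavy polysome value of RPSAP15 included, so the differences are given with intervals and no p-value. RPSA minus RPSAP15 was −0.518 points in the free library (95% interval −4.08 to 3.19) and −1.59 points in the small subunit library (−5.87 to 2.94). The large subunit library gave 1.47 points (−4.16 to 7.52) and the monosome library 1.85 points (−3.10 to 7.40). Light polysomes gave 5.85 points (−1.97 to 14.1) and heavy polysomes 9.74 points (−1.41 to 20.5). All 6 intervals held 0, and RPSA was above RPSAP15 in 4 of 6 libraries. With the libraries as strata, the odds of C at RPSA over those at RPSAP15 had a ratio of 1.03 (95% interval 0.940 to 1.14). These values do not decide whether the sites differ, because the selection had used them. The interval in heavy polysomes reached up to 20.5 points. With 181 nt around the site that do not tell them apart, how far both values draw on the same molecules was not tested.

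Both genes had their most reads in the free library and their fewest in the heavy polysome library. RPSA had 78676 reads from free RNA, 50654 with the small and 23359 with the large subunit, 15321 from monosomes, 13059 from light polysomes and 5522 from heavy polysomes. RPSAP15 had 677, 452, 257, 280, 143 and 77 reads in the same order, so that RPSA had fewer in each denser fraction and RPSAP15 did so except from the large subunit to the monosome. Coverage was 14.2 times higher in the free than in the heavy polysome library for RPSA and 8.79 times for RPSAP15. Reads at all listed sites also went down, from 764521 to 50416, yet the median ratio over the 31 sites listed in all 6 libraries was 0.932. Of these 31 sites, 4 had a higher ratio than RPSA and 5 had a higher ratio than RPSAP15. RPSA ranked between 1st and 4th of all listed sites by coverage in every library, and first in both polysome libraries. The sites above it in the monosome library, of other ribosomal protein genes, were not listed in either polysome library. RPSA held 9.77% (monosome) to 17.2% (light polysome) of the reads at listed sites. Over the 31 sites of all libraries alone, the order changed and the monosome share was the highest, at 26.2%, against 19.3% to 25.0% in the other libraries.

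**Figure D3:**
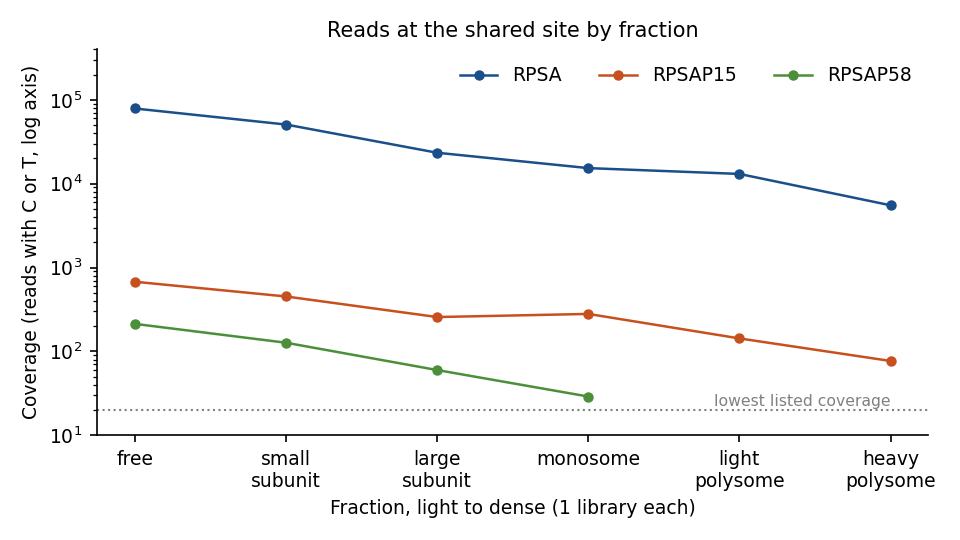
Coverage (reads with C or T, log axis) at the shared site of RPSA, RPSAP15 and RPSAP58 by fraction, 1 library each; the dotted line is the lowest coverage in the lists, 20 reads. RPSA lies far above its copies in every library, going from 78676 reads in free RNA to 5522 in heavy polysomes.

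For every 100 reads at RPSA there was about 1 at RPSAP15, but not in constant proportion. Of the reads at both sites, RPSAP15 took 0.853% in free RNA (95% Clopper-Pearson interval 0.790 to 0.920), 0.884% in the small subunit (0.805 to 0.969) and 1.09% in the large subunit library (0.960 to 1.23). Its share was 1.79% for monosomes (1.59 to 2.02), 1.08% for light polysomes (0.914 to 1.27) and 1.38% for heavy polysomes (1.09 to 1.72). The monosome library stood highest, with an interval clear of 4 of the 5 others, and its 280 RPSAP15 reads outnumbered the 257 of the large subunit library while RPSA had fewer. A chi-square test of homogeneity over the 6 libraries gave 134 (5 degrees of freedom, p = 2.81e-27). Without the monosome library the chi-square was 28.1 (4 degrees of freedom, p = 1.19e-05). This test compares the reads of these libraries, not the fractions as conditions. It takes every read as independent, which could not be checked without molecular identifiers, so its p-values cover counting error only. Whether the share reflects transcripts of the pseudogene or the assignment of RPSA reads to it cannot be told apart here.

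**Figure D4:**
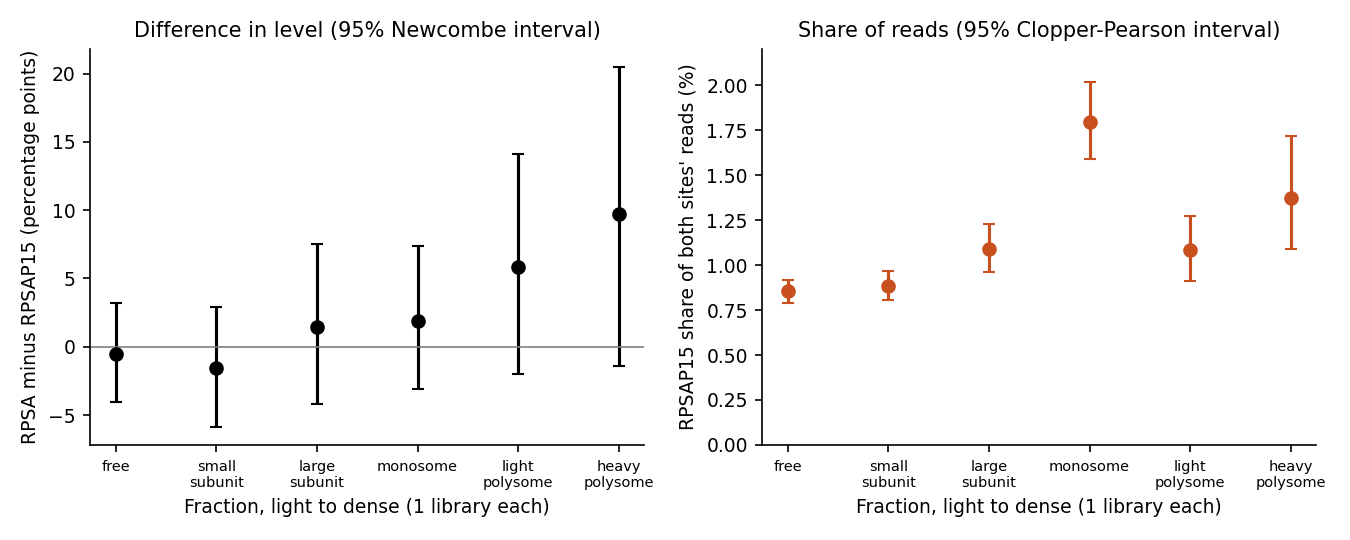
Left, RPSA minus RPSAP15 m5C level in percentage points with 95% Newcombe intervals, in each fraction (1 library each); all 6 intervals hold 0. Right, RPSAP15 as a percentage of the reads of both sites with 95% Clopper-Pearson intervals; the monosome library is highest at 1.79%.

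The other listed copies with the same 21-nt window had levels of 45.0% or more in the reads assigned to them. RPSAP58 had 57.7% in the free library (51.0 to 64.2), 51.2% in the small subunit (42.6 to 59.7), 60.0% in the large subunit (47.4 to 71.4) and 65.5% in the monosome library (47.3 to 80.1). These values rest on 213, 127, 60 and 29 reads. RPSA was above it in all 4 libraries, and the interval of the difference was clear of 0 in the small subunit library alone (12.1 points, 3.51 to 20.7, not adjusted for the 4 libraries). Pooled over the 4 libraries that listed it, RPSAP58 had 0.255 reads per 100 at RPSA. The ratio was 0.271 in the free and 0.189 in the monosome library. At the pooled ratio, 14.1 reads would fall in the heavy polysome library, below the 20 that a listed site has, and 33.3 in the light polysome library. Libraries that did not list the site do not enter this ratio. COMMD1 and RP11-506B6.3 were listed in the free and small subunit libraries, with 20 to 62 reads. COMMD1 had 63.6% and 69.0% there, and RP11-506B6.3 had 61.3% and 45.0%, and each interval of the difference from RPSA held 0. With RPSAP15, the listed copies thus had C in 45.0% to 72.5% of reads, and none of them was near the lowest listed level of 10%. Only copies that passed the filters are listed, so this range does not cover the other places with this window. Whether RPSA reads assigned to a copy shape its level was not tested.

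RPSAP15 had a second listed site, which has no counterpart cytosine in RPSA. It lay at chrX:86958628, 369 nt downstream of the main site in the direction of transcription, and was listed in the free library alone, with 14 C among 26 reads (53.8%, 35.5 to 71.2). RPSA has G at this place (G681C). The 21 nt around the second site are shown beside those of RPSA, with the listed base and its counterpart in capitals, because this base is where the listed cytosine and RPSA differ. The RPSAP15 sequence is read from chrX:86958618-86958638.
RPSAP15 second site: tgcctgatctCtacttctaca
RPSA at the same place: tgcctgatctGtacttctaca

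The version with C occurred at 25 places of the genome, all in RPSA family genes, and the version with G at 4. After every C was read as T, the version with C occurred at 57 places, 29 of them in RPSA family genes, and the version with G at 9. The C is not followed by TCCA, so the second site is not Type II. With 26 reads it had the lowest coverage of the 3 sites by far.

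Against other Type II sites, both genes stood near the top by level. The lists held 190 Type II sites, with 65 to 89 in a library. RPSA ranked 5th in the free, 6th in the small subunit, 1st in the large subunit, 2nd in the monosome, 4th in the light polysome and 6th in the heavy polysome library. RPSAP15 ranked 4th, 5th, 2nd, 3rd, 6th and 14th. RPSAP15 thus had its own lowest rank in heavy polysomes, where it was still 14th among 89 sites.

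Of the 31 sites listed in all libraries, 9 had their highest level in the monosome library, 14 had their lowest in the heavy polysome library, and 7 had both, RPSA and RPSAP15 among them. The sites most like RPSA were found by the root mean square difference over the 6 fractions of levels centred on each site's mean. They were TARBP2 (2.58 points), which encodes a double-stranded RNA binding partner of Dicer, SLC25A6 (3.45 points), which encodes an ADP/ATP carrier of mitochondria, and RTN3 (3.64 points), which encodes a reticulon of the endoplasmic reticulum. RPSAP15 came next at 3.88 points. TARBP2 had its highest level, 26.2%, in the monosome and its lowest, 15.8%, in the heavy polysome library, so its course ran at a far lower level than that of RPSA. RPSA spanned 19.2 points between its highest and lowest fraction and RPSAP15 spanned 27.0 points, against a median of 12.8 points over the 31 sites. Of the 31 sites, 8 spanned more than RPSA and 4 more than RPSAP15. Spans in points depend on the level of a site, since no listed level is below 10% and sites at low levels cannot fall far.

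**Figure D5:**
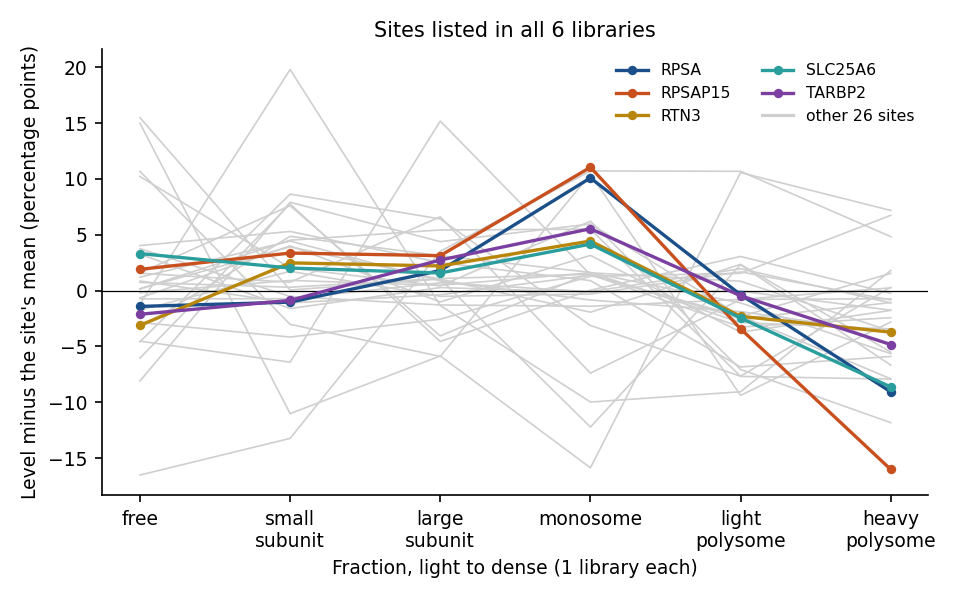
m5C level minus the mean of the site over the 6 fractions, in percentage points, for the 31 sites listed in all 6 libraries (1 library per fraction). RPSA, RPSAP15, TARBP2, SLC25A6 and RTN3 are coloured and the other 26 are grey; the 5 coloured sites are highest in the monosome library and lowest in the heavy polysome library.

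Among genes of cytosolic ribosomal proteins, RPSA was apart by level. The lists held 18 sites in 15 such genes, of which only RPSA and RPS2, another protein of the small subunit, had a site in all libraries. The 17 sites other than RPSA had levels of 10.1% to 28.6%, and RPS2 had 11.8% (light polysome) to 15.8% (monosome). High levels were found among their pseudogenes. Those listed under a pseudogene name held 14 sites in 10 genes, and 8 of these sites were listed in the free library alone. Copies listed under other names, such as the COMMD1 entry, are left out of these counts. Of the 12 counted sites outside RPSAP15, 6 reached 50% or more in some library, and the sites of RPSAP58, itself an RPSA copy, were among these 6. The rest of the 6 were listed in the free library alone, with 26 to 54 reads. The highest level among the counted sites was 70.4% at RPS2P1, over 54 reads, which is named after its value was seen. RPS2P5 and RPS2P55, copies of RPS2 listed in 6 and 5 libraries, had 10.5% to 15.8% and 10.7% to 19.0%, which overlaps the range of RPS2 itself.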

How the data were processed

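The site lists of 6 HEK293T libraries were used, with fractions taken from the sample labels. Per the study's methods and the submitters' processing notes, the authors trimmed reads (cutadapt 1.13, Trimmomatic 0.36), mapped them to a converted GRCh37 genome with HISAT2 (2.10), kept unique alignments, and gave all other reads to Bowtie2 (2.2.9) on converted transcripts, where a read could have several alignments. Reads and genes that resisted conversion were removed. The deposited coverage is a count of reads with C or T, not scaled to library size. As deposited, the m5C level is a fraction, C reads over coverage. The deposited P-value is the authors' binomial test, and it served only to describe the lists, in which the largest was 0.000242. Sites under the filters are absent, so a missing entry may have had too few reads or too low a level. RPSA family members share long stretches, so levels and coverage of a copy depend on how its reads were assigned.

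C reads were recovered by multiplying level and coverage, and came out whole in all 1222 entries (tolerance 1e-06). Levels carry Wilson intervals, shares Clopper-Pearson intervals and differences Newcombe intervals, all at 95%. The threshold was 0.05. RPSA and RPSAP15 levels were compared in each library, and over libraries by the Cochran-Mantel-Haenszel odds ratio, with no p-value given because the selection had used these levels. The share of reads was tested by chi-square. Windows were spliced from GENCODE 44 models lifted to GRCh37, aligned with Biopython 1.88, searched in the genome on both strands with and without C read as T, and folded with RNAfold 2.7.2 at 50 nt on either side of the site. The Newcombe interval and the odds ratio were tried on simulated counts with no duplicate reads. The Wilson and Clopper-Pearson intervals and the chi-square test were not tried in this way. Analyses used Python 3.11.15, scipy 1.17.1 and statsmodels 0.14.6.

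The genes and lists were chosen with earlier results of these data known. Named genes were RPSA and RPSAP15, other genes named RPSA, ribosomal protein sites in 5 or more libraries, the 3 sites most like RPSA, and sites with the same 21-nt window, with RPS2P1 as an exception. Alternatives changed the coverage minimum, the test, the reads counted, the libraries and the measure of likeness, and 1 contrast, monosome against heavy polysome, was added after seeing the data.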

Additional observations from a re-analysis of the deposited data

Results flagged for a closer look

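A second listed site was present in 2 genes of the RPSA family, in reads that no comparison used. The second RPSAP15 site (chrX:86958628) had 53.8% m5C over 26 reads in the free library. The second RPSAP58 site (chr19:24010071) had 62.5% over 32 reads in the same library. Every listed site has at least 5 C reads, so a level above 0 follows from the filters of the lists. Neither was listed in another library. At both places RPSA has G (G681C and G186C), so a C read there carries the base of the copy's own genome sequence. The RPSAP58 version of the 21 nt occurs at 1 place of the genome and the RPSAP15 version at 25 places. After every C is read as T, they occur at 2 and 57 places. What part read assignment has in these values was not tested.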

How the results depend on the processing

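No paired analysis was possible because each fraction has 1 library, so fractions share no replicate numbers; RPSA and RPSAP15 share libraries, which were kept as strata. Coverage minimums of 50 and 100 reads could not change the difference between RPSA and RPSAP15 in a library, and the latter only leaves out the heavy polysome library (77 RPSAP15 reads). No p-value of that difference is given, and Boschloo's test was not run for the 4 lighter libraries. The odds ratio over libraries was 1.01 to 1.07 without each library in turn, 1.02 at 100 reads and 1.00 with reads summed over libraries. The RPSAP15 share of 1.00% was 0.929% (without monosome) to 1.11% (without free), and the shares still differed between libraries from C reads alone or T reads alone. Summing RPSA and RPSAP15 as 1 site gives nearly the RPSA level by construction, and this lay within the interval of RPSAP15 in each library. RPSA free minus heavy polysome, 7.65 points, was 2.16 points with light and dense libraries summed and 19.2 points from the monosome, and RPSAP15 had 10.4 and 27.0 points there. The likeness measure decides the names, since correlation gave TARBP2, RPSAP15 and RPS2P5 and levels over their mean gave RPSAP15, RPS2P5 and RTN3, each sharing 1 with the first choice. Shares of listed reads depend on their denominator by construction. Without the mitochondrial 12S rRNA site, RPSA held 13.9%, 18.7%, 15.4%, 10.5%, 20.1% and 11.7% from free to heavy polysome, and RPSAP15 held 0.120%, 0.167% and 0.170% in the first 3. Over the 31 sites of all libraries, RPSA held 21.9%, 22.9%, 23.9%, 26.2%, 25.0% and 19.3%, and RPSAP15 held 0.188%, 0.205%, 0.263%, 0.479%, 0.273% and 0.269%. Depth limits the copies, with 77 reads at RPSAP15 in heavy polysomes and 29 at RPSAP58 in monosomes.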
